A study of Mus musculus with 21 samples.

Results

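Krtdap, Tnni1, Snx20, Oc90, Eif4e1b and Adam11 are 6 of the 31053 genes counted in 21 mRNA sequencing libraries of mouse embryonic stem cells. They were selected on measured values, chosen by large rises in the libraries labelled LIF HP against those labelled LIF LP or CH+LIF HP, so their values in these 3 groups are given as a description, without a test. Each symbol matched 1 Ensembl gene. All 6 passed the filter on low counts, but Oc90 and Eif4e1b did so only because of the LIF HP libraries, so both are described in every group without a test.

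The cells were E14Tg2a, male cells of the 129 background with the short-lived green fluorescent protein GFPd2 knocked into 1 Rex1 allele, which all 7 groups share. Every library came from cells kept in NDiff227 with 3 uM CHIR99021 and 1 uM PD0325901. CHIR99021 (CH) is an inhibitor of GSK3 and raises Wnt/beta-catenin signalling. PD0325901 (PD) is an inhibitor of MEK, the kinase upstream of ERK. Cells not sampled at zero passage were then passaged with CH, PD and the cytokine LIF given or withdrawn. The labels name 7 groups of 3 replicates, namely 2i+LIF PO, 2i+LIF LP, CH+LIF LP, LIF LP, 2i+LIF HP, CH+LIF HP and LIF HP. The term 2i usually stands for CH and PD together. The study sampled zero passage, 1 month and 2 months of culture, and the labels do not spell out PO, LP and HP. Nothing says that replicates were separate cultures, so p-values measure the spread between these libraries only.

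Each of the genes is best known from a differentiated tissue or a gamete. Krtdap encodes a small secreted protein of the upper layers of the epidermis. Tnni1 encodes slow skeletal troponin I, the inhibitory subunit by which the troponin complex holds a muscle filament at rest. Oc90 encodes otoconin-90, the main matrix protein of the calcium carbonate crystals of the inner ear. Eif4e1b encodes a relative of the mRNA cap-binding protein eIF4E that is found in oocytes. Adam11 encodes a membrane protein of the nervous system that has the fold of a metalloprotease without its catalytic activity and binds LGI proteins. Snx20 encodes a sorting nexin, a protein that binds phosphoinositides on endosomes, and it interacts with the leukocyte adhesion ligand PSGL-1. Their genes lie on 6 chromosomes, and none overlaps another annotated gene. In GRCm38, with the annotation GENCODE M21, they are Krtdap (ENSMUSG00000074199, chromosome 7, 30787896 to 30791097, plus strand), Tnni1 (ENSMUSG00000026418, chromosome 1, 135779434 to 135810989, plus strand), Snx20 (ENSMUSG00000031662, chromosome 8, 88626563 to 88636128, minus strand), Oc90 (ENSMUSG00000015001, chromosome 15, 65876053 to 65912397, minus strand), Eif4e1b (ENSMUSG00000074895, chromosome 13, 54783998 to 54788459, plus strand) and Adam11 (ENSMUSG00000020926, chromosome 11, 102761439 to 102780262, plus strand).

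Gene counts per library ranged from 1132126 to 3783043, so that 1 count was worth between 0.249 and 1.03 CPM (counts-per-million of the scaled library size). A pair of libraries, 2i+LIF LP replicate 1 and 2i+LIF PO replicate 1, had mean correlations of 0.787 and 0.83 with their replicates, against 0.857 to 0.944 for the other 19. The ERK target Dusp6 went against the label LIF HP, which names no MEK inhibitor: it had 0.411 ± 0.711 CPM there (2 counts in all; means are given ± SD over 3 libraries throughout) against 27.6 ± 17.1 for LIF LP and 3.37 ± 1.36 for 2i+LIF HP. Of 11 tested MEK-ERK target genes, 8 were below their LIF LP level in LIF HP by edgeR's quasi-likelihood test (adjusted p under 0.05). Of all 10643 tested genes, 4.63% were lower. In LIF HP 4 of the 11 were lower than in CH+LIF HP, beside 0.874% of all genes (1.47% were called in either direction). Without 1 library of the groups compared, edgeR called 5 to 6 and 2 to 4 of these target genes. Against 2i+LIF HP 2 of the 11 were lower (1.68% of all genes), with 1 to 2 called without 1 library. Dusp6 also went against the label 2i+LIF LP, which usually includes a MEK inhibitor, in replicates 2 and 3. These had 34.4 and 26.3 CPM, whereas replicate 1 had 0.701 CPM and CH+LIF LP averaged 38.0 ± 4.22 CPM. Group names below are therefore those of the labels only. All 9 markers of embryonic stem cells had counts in every group, and their summed level in LIF HP was 2357 to 2488 CPM. The PO libraries belong to another sequencing run by their file names, so PO and run cannot be told apart.

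The 6 genes did not share 1 pattern, and the description "switched on in LIF HP" covered only some of them. Only 5 of the 36 pairs of a gene with a group other than LIF HP were without counts, and Krtdap, Snx20 and Adam11 had counts in every group. In 4 of the 6 genes (Krtdap, Oc90, Eif4e1b and Adam11) the highest group mean was that of LIF HP, as it was in 19.5% of all tested genes. Krtdap alone had all 3 LIF HP libraries above all 18 others, which held for 2.18% of tested genes. The mean of Tnni1 was highest in 2i+LIF HP and that of Snx20 in 2i+LIF LP. The LIF HP libraries lay wholly above those of CH+LIF HP in all 6 genes (15.3% of tested genes), above those of LIF LP in 4 (20.1%) and above those of 2i+LIF HP in 3 (14.6%); the first and second of these comparisons chose the genes. Of all counts of a gene over the 21 libraries, LIF HP held 72.6% for Krtdap, 51.9% for Eif4e1b, 35.8% for Adam11, 34.7% for Oc90, 15.5% for Tnni1 and 14.3% for Snx20. These shares are not scaled for library depth, and the 3 PO libraries were the deepest.

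**Figure D1:**
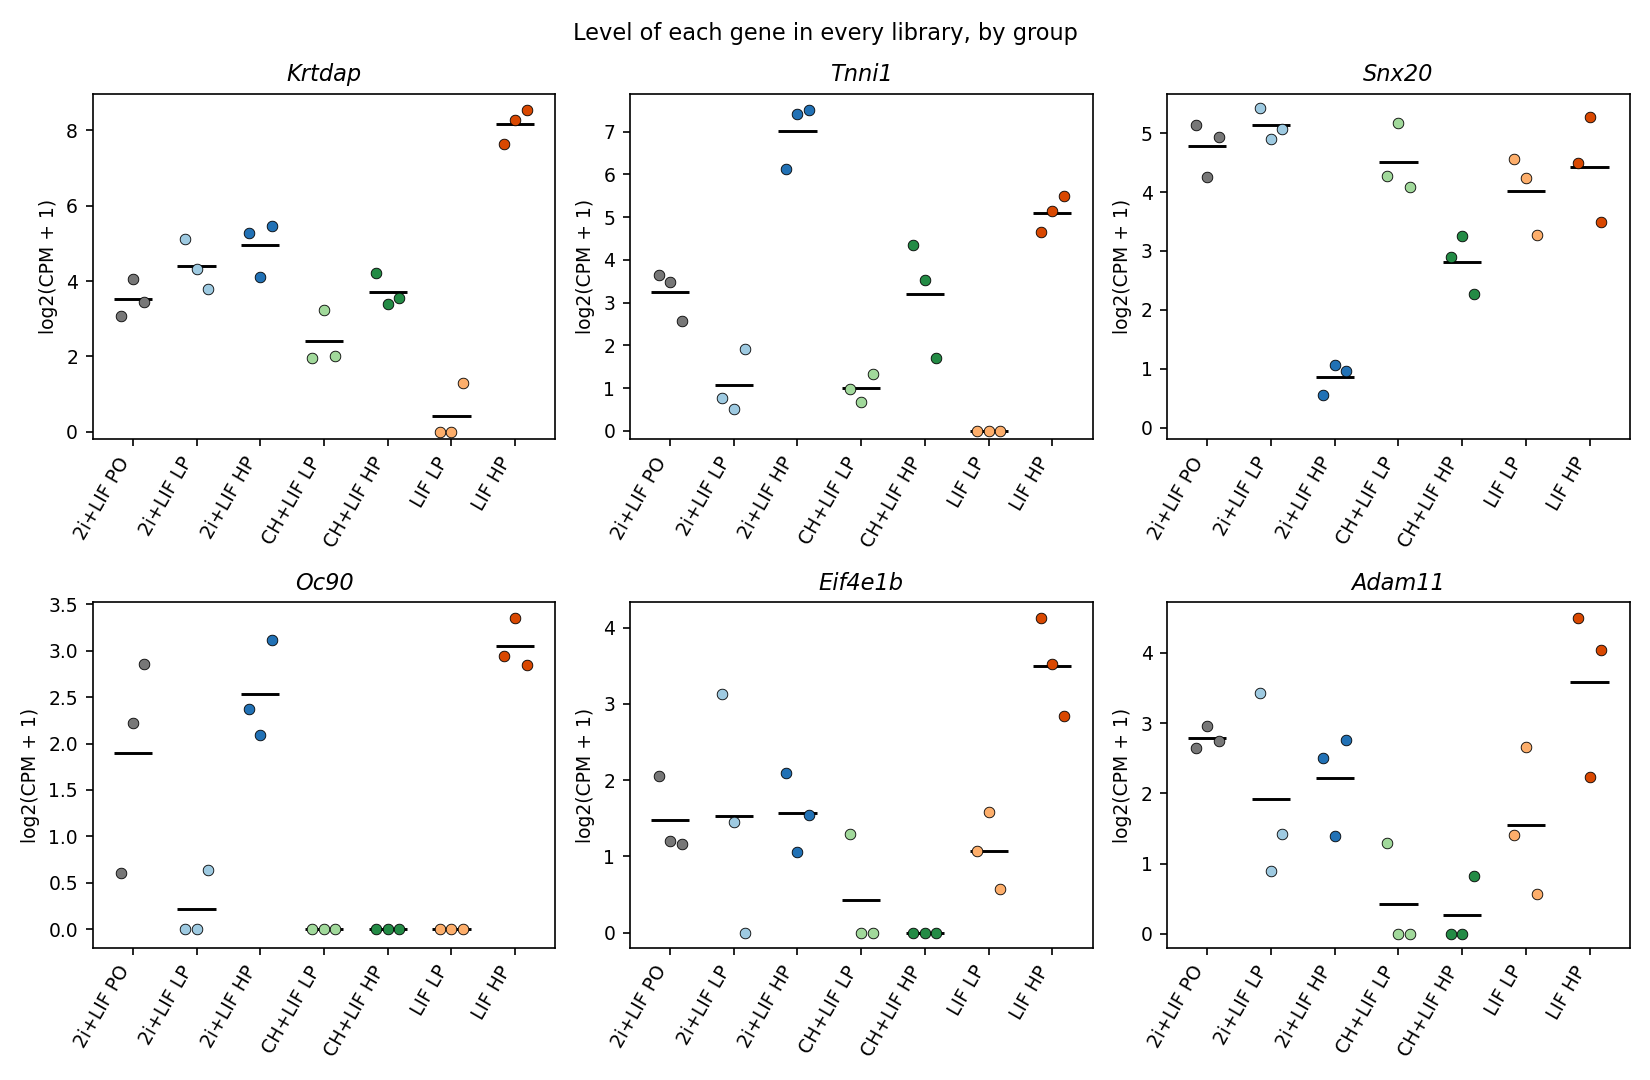
Level of each gene in every library, as log2(CPM + 1) on the vertical axis, with the 7 groups along the horizontal axis; points are libraries and lines are means of the 3 plotted values. Krtdap stands above every other library in LIF HP, Tnni1 is highest in 2i+LIF HP, and Snx20 is at the level of most groups in LIF HP and lowest in 2i+LIF HP.

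The sequences before the start sites are shown for Krtdap and Tnni1, the genes with the largest described differences between LIF HP and LIF LP that are also detected in most groups. They are the 250 bases upstream of the RefSeq start in GRCm38.p6; RefSeq windows were found for 2 of the 6 genes. The Tnni1 window belongs to a start inside the body of the GENCODE gene. Capitals mark matches, on either strand, to 3 motifs. The TATA box, where general transcription factors assemble, was searched as TATAAA. The element of the AP-1 family of transcription factors was searched as TGAGTCA. The element of the TCF and LEF factors, which act in Wnt signalling, was searched as ATCAAAG.
Krtdap, chr7:30787655-30787904, plus strand: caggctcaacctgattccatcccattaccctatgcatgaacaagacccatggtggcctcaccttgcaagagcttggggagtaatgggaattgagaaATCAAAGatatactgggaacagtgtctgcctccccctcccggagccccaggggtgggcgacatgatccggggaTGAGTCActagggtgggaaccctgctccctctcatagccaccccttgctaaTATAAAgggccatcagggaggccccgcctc
Tnni1, chr1:135799171-135799420, plus strand: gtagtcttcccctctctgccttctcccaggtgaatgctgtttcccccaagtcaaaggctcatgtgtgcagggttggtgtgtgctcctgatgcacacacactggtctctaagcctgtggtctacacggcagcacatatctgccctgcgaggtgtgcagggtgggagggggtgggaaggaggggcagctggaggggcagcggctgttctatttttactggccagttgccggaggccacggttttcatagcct
In the Krtdap window the TATA box match lay 30 to 25 bases and the AP-1 match 81 to 75 bases upstream of the start, with the TCF/LEF match farther upstream. Of all 32851 windows of this length, 12.4% held the first, 4.46% the second and 3.21% the last of these motifs. The Tnni1 window held no match to the 3 motifs. Of the other motifs searched, TTCNNNGAA (STAT, 7.02% of windows), ATGCAAAT (octamer, 1.6%) and CCGGAAG (ETS, 6.91%) matched neither window, and CACCC (KLF, 52.0%) matched Krtdap at 3 places and Tnni1 at 2. No matches overlapped. A match describes letters and not a bound factor.

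Krtdap had the most uneven distribution. In LIF HP its 3 libraries had 199.9, 311 and 374 CPM (295 ± 88.1), and in LIF LP they had 0, 0 and 1.44 CPM (0.481 ± 0.833, from 3 counts). These were its highest and its lowest group. The 2i+LIF HP libraries had 38.1, 16.4 and 43.1 CPM, and those of 2i+LIF LP had 33.7, 18.9 and 12.9 CPM. In CH+LIF HP there were 17.5, 9.54 and 10.7 CPM, in 2i+LIF PO 7.39, 15.7 and 9.97 CPM, and in CH+LIF LP 2.91, 8.47 and 3.04 CPM. From 2i+LIF HP down to CH+LIF LP each group overlapped the next in order, while LIF HP and LIF LP overlapped none. With counts pooled over each group (95% intervals of counting error, here and for all ratios below), the Krtdap level in LIF HP was 18.2 times that in CH+LIF HP (14.1 to 24.0) and 6.86 times that in 2i+LIF HP (5.81 to 8.15). Pooled ratios weigh libraries by depth and use unscaled totals, and the ratios of the mean CPM were 23.5 and 9.07, the second outside the interval. Amplification is not part of such intervals, since no molecular identifiers were reported.

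The 4 groups that played no part in choosing the genes, 2i+LIF PO, 2i+LIF LP, 2i+LIF HP and CH+LIF LP, allow tests. They are given for Krtdap, Tnni1, Snx20 and Adam11, the 4 genes that passed the filter on low counts without LIF HP. A joint test for any difference among the groups passed for 3 of the 4 (14.3% of all tested genes passed), with edgeR adjusted p of 7.19e-08 for Tnni1, 4.17e-05 for Snx20 and 0.00451 for Krtdap. Adam11 did not pass (0.175). Of the 24 pairwise differences of these genes between the groups 10 passed, beside 5.63% of the differences of all tested genes. Of the 12 that do not involve PO 5 passed, beside 3.27%. The calls were repeated under 28 alternative fits, which include leaving out each of the 21 libraries. There were fewer where a gene was not tested or a difference involved PO, which a fit without PO cannot give. That fit tested the other 3 groups jointly.

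Krtdap was lower in CH+LIF LP than in 2i+LIF HP, by a log2 fold change of -2.73 (SE 0.55, edgeR adjusted p 0.00231), a call kept in all 28 alternatives; the value was -3.44 without CH+LIF LP replicate 2. In that pair 6.14% of all genes were called. It was also above its PO level in 2i+LIF HP, by 1.52 on the log2 scale (SE 0.48, edgeR adjusted p 0.0433; 10.6% of all genes called), a call that 19 of 27 alternatives kept. It was lost when only the groups compared were fitted (0.125), without PO replicate 1 or 3 (0.0925 and 0.111), without 2i+LIF HP replicate 1 or 3 (0.0952 and 0.2), and without CH+LIF HP replicate 2 or 3 or LIF HP replicate 2 (0.0502 to 0.0515). Against 2i+LIF LP the level in CH+LIF LP differed by -2.15 (SE 0.55) with an unadjusted p of 0.000579, which did not pass after adjustment (edgeR adjusted p 0.308). In that pair edgeR called 0 of 10643 genes (percent called 0.0), with 950 at an unadjusted p under 0.05, 2 of the 4 genes among them; DESeq2 called 25, of which 1 was among the 4.

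Tnni1 was present in LIF HP at 24.2, 34.5 and 44.3 CPM (34.3 ± 10.0) and had no counts in LIF LP, so its level there was at least 42.2-fold lower with 3 counts taken as the limit of a count of 0. Yet it was higher still in 2i+LIF HP, at 68.3, 170.1 and 182.1 CPM (140.2 ± 62.5), 5.18 times the level in LIF HP by pooled counts (4.32 to 6.24) and 4.08 times by mean CPM. There its 3 libraries lay above all 18 others, as in 1.32% of tested genes. CH+LIF HP had 19.5, 10.5 and 2.28 CPM and PO 11.6, 10.2 and 4.99 CPM. The LP libraries were low in each medium, with 0.701, 0.431 and 2.80 CPM in 2i+LIF and 0.969, 0.605 and 1.52 CPM in CH+LIF. The order 2i+LIF HP, LIF HP, then CH+LIF HP and PO was without overlap except between the last pair, which overlapped.

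Among the groups not used to choose it, the Tnni1 level of 2i+LIF HP exceeded that of 2i+LIF LP by a log2 fold change of 6.70 (SE 0.71, edgeR adjusted p 1.29e-05), where 3.67% of all genes were called. It was lower in CH+LIF LP than in 2i+LIF HP by 7.04 (written as a log2 fold change, -7.04; SE 0.73, edgeR adjusted p 3.55e-06). All 28 alternatives kept both calls, but 2i+LIF LP held only 7 counts of Tnni1, and without its replicate 3 the first value was 7.84. Against PO it was higher in 2i+LIF HP (3.98, SE 0.56, edgeR adjusted p 9.31e-05) and lower in 2i+LIF LP (-2.71, SE 0.72, edgeR adjusted p 0.0297; 5.06% of all genes called) and in CH+LIF LP (-3.05, SE 0.76, edgeR adjusted p 0.0152; 8.31% called). The difference between 2i+LIF LP and PO was lost in 5 of 27 alternatives: when only the groups compared were fitted (edgeR adjusted p 0.319), without 2i+LIF LP replicate 2 (0.103), PO replicate 2 (0.0915) or 2i+LIF LP replicate 1 (0.0619), and without both libraries that stood apart (0.0675). Its value was -3.85 without 2i+LIF LP replicate 3. The difference between CH+LIF LP and PO was lost without CH+LIF LP replicate 1 (0.0753) or replicate 2 (0.0728).

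Oc90 was near the limit of detection, with 98 counts over 21 libraries. LIF HP had 6.70, 9.24 and 6.18 CPM (7.37 ± 1.64), 2i+LIF HP had 4.18, 3.27 and 7.67 CPM (5.04 ± 2.32) and PO had 0.528, 3.66 and 6.23 CPM (3.47 ± 2.86). These 3 groups overlapped in order, and the ratio of LIF HP to 2i+LIF HP was 1.27 (0.726 to 2.25; 1.46 from mean CPM). CH+LIF LP, LIF LP and CH+LIF HP had no counts and 2i+LIF LP had 1 count. Against the limit of 3 counts, the Oc90 level in LIF HP was at least 9.84-fold higher than in LIF LP and at least 10.0-fold higher than in CH+LIF HP. By the same limit, its level in CH+LIF LP was at least 7.80-fold lower than in 2i+LIF HP and at least 6.25-fold lower than in PO.

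Eif4e1b had 16.5, 10.5 and 6.18 CPM in LIF HP (11.0 ± 5.18, 55 counts) and no counts in CH+LIF HP, so that LIF HP exceeded it at least 16.2-fold. The LIF LP libraries had 1.10, 1.99 and 0.481 CPM (6 counts), a ratio of 7.96 (3.43 to 22.6; 9.27 from mean CPM). The PO libraries had 3.17, 1.31 and 1.25 CPM, 2i+LIF HP had 3.25, 1.09 and 1.92 CPM, and CH+LIF LP had 1.45, 0 and 0 CPM. In 2i+LIF LP the levels were 7.71, 1.72 and 0 CPM, and replicate 1, a library that stood apart, exceeded the lowest LIF HP library. The groups not used to choose Eif4e1b held 3 to 16 counts each.

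Adam11 was uneven between replicates of LIF HP, at 21.6, 3.70 and 15.5 CPM (13.6 ± 9.12, 63 counts). Replicate 2 lay within the range of PO (5.28, 6.80 and 5.73 CPM), 2i+LIF LP (9.82, 0.861 and 1.68 CPM), 2i+LIF HP (4.65, 1.64 and 5.75 CPM) and LIF LP (1.65, 5.31 and 0.481 CPM) or below it. Lowest were CH+LIF LP, with 3 counts in replicate 1 alone, and CH+LIF HP, with 1 count in replicate 3. The ratio of LIF HP to CH+LIF HP was 55.8 with an interval from 9.65 to 2237 (53.6 from mean CPM), and that to LIF LP was 4.56 (2.43 to 9.28; 5.48 from mean CPM). The described log2 fold change of Adam11 against LIF LP was 2.49 (SE 0.94), and it was 1.90 without LIF HP replicate 1 and 3.63 without LIF LP replicate 2. Against CH+LIF HP it was 5.65 (SE 1.29), with 7.72 without CH+LIF HP replicate 3, which held the 1 count, and 5.01 without replicate 2. Among the 4 groups not used to choose it, edgeR called no pairwise difference of Adam11. The smallest unadjusted p was 0.00746, for CH+LIF LP against PO (log2 fold change -3.25, SE 1.12, edgeR adjusted p 0.0696), a difference that DESeq2 called (adjusted p 0.0388); 3 of the 6 pairs had an unadjusted p under 0.05.

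Snx20 was the exception among the 6. Its LIF HP libraries had 21.6, 37.6 and 10.3 CPM (23.2 ± 13.7). Their range overlapped those of 2i+LIF LP (42.1, 28.8 and 32.4) and PO (34.3, 18.0 and 29.7). It also overlapped those of CH+LIF LP (18.4, 35.1 and 15.9) and LIF LP (22.6, 17.9 and 8.66). No single range of these groups held all the LIF HP values, but their pooled range, 8.66 to 42.1 CPM, did. Low levels marked CH+LIF HP, with 6.49, 8.59 and 3.81 CPM, and 2i+LIF HP, with 0.465, 1.09 and 0.958 CPM (4 counts). The ratio of LIF HP to LIF LP was 1.14 (0.854 to 1.53; 1.41 from mean CPM). By the described log2 fold change against LIF LP, 0.53 (SE 0.47), Snx20 ranked 3108th of 10643 genes, and without LIF HP replicate 2 the value was -0.01. It ranked 207th against CH+LIF HP and 23rd against 2i+LIF HP. The 2i+LIF HP libraries lay below all 18 others, which held for 0.789% of tested genes.

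The tests among groups not used to choose it gave the same picture for Snx20 in 2i+LIF HP. It was lower there than in 2i+LIF LP by a log2 fold change of -5.31 (SE 0.66, edgeR adjusted p 3.61e-05) and than in PO by -4.97 (SE 0.66, edgeR adjusted p 4.22e-05). CH+LIF LP was higher than 2i+LIF HP by 4.74 (SE 0.67, edgeR adjusted p 5.59e-05). All alternatives kept these 3 calls. Snx20 and Tnni1 thus differed between 2i+LIF HP and 2i+LIF LP in opposite directions. Some markers of other cell types had larger sums in 2i+LIF HP. All 5 mesoderm markers had counts there, with a sum of 19.2 to 40.3 CPM, against 4 of 5 and 2.80 to 5.17 CPM in 2i+LIF LP, where Mixl1 was at 0. Only 2 of these 5 passed the filter on low counts, so the sum may rest on few genes. Of 7 markers of 2-cell-like cells 6 had counts in 2i+LIF HP (10.5 to 13.9 CPM in sum) and 2 in 2i+LIF LP (0 to 2.10 CPM). The part of these cell types in the differences of Tnni1, Snx20 and Krtdap was not tested. Of 12 other leukocyte markers 8 had counts in LIF HP, while Ptprc, Cd53, Tyrobp and Fcer1g had none. The summed level of the list was 112 to 215 CPM in LIF HP, 103.6 to 110.7 in LIF LP, 64.3 to 119.9 for 2i+LIF HP, 94.4 to 144.5 for CH+LIF HP, 72.7 to 223 for CH+LIF LP, 112 to 330.3 for 2i+LIF LP and 327 to 484 in PO. The lowest sum of a library was in 2i+LIF HP, where Snx20 was lowest, and the highest in PO. CH+LIF HP, where Snx20 was also low, overlapped LIF LP and LIF HP in this sum. Of 3 tested, Lcp1, an actin-bundling protein of leukocytes, was higher in LIF HP than in LIF LP by 4.90 (SE 0.96, edgeR adjusted p 0.00275; 9.96% of all genes called), and edgeR called none against CH+LIF HP or 2i+LIF HP (1 at an unadjusted p under 0.05 in each; DESeq2 called 0). Their part in the Snx20 result was not tested. In bulk RNA, fewer cells with a transcript and less of it per cell cannot be told apart.

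**Figure D2:**
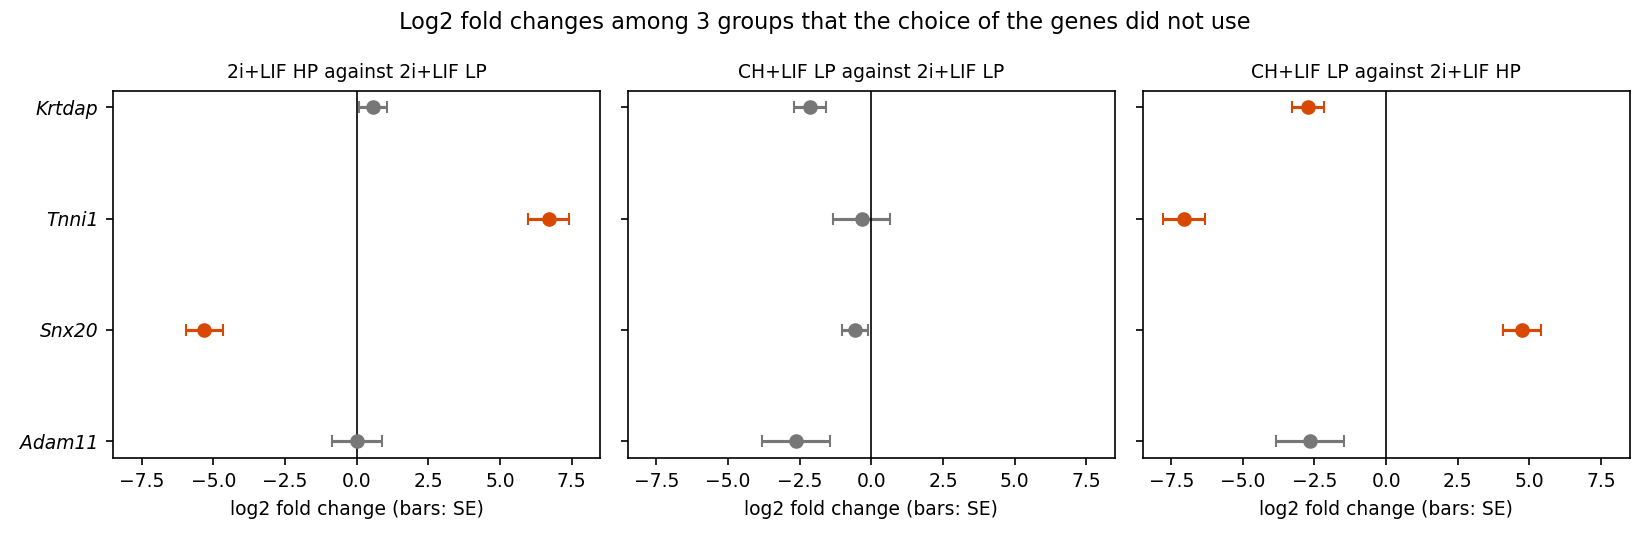
Log2 fold change between 3 groups not used to choose the genes, with bars of 1 SE; orange points passed the test at an edgeR adjusted p under 0.05 and grey points did not. Oc90 and Eif4e1b, which passed the filter on low counts only through LIF HP, are left out; Tnni1 (6.70) and Snx20 (-5.31) lie on opposite sides of 0 in the left panel, and no point passed in the middle panel.

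The epidermal and epithelial list held 24 genes, of which 21 had a count and 10 were tested, and its members ranged widely. Over all 21 libraries Tfap2c had 2901 counts, the desmosome gene Dsp had 1935, Sfn 1430, Perp 687 and the simple-epithelium keratin Krt8 628. Among genes of stratified epidermis Grhl3, a transcription factor of barrier formation, had 150 counts, Krt10 had 67, Krt1 had 5, all in 1 LIF HP library, Krt5 had 1, Krt14 had 0, Ivl had 2 and Trp63, the factor that maintains epidermal stem cells, had 3. Against LIF LP 2 of the 10 were higher in LIF HP and none was lower (5.33% and 4.63% of all tested genes), with 7 at an unadjusted p under 0.05 and 3 called by DESeq2. The median log2 fold change of the 10 was 2.14 against LIF LP and 1.38 against CH+LIF HP (0.01 over all genes in both) but -0.66 against 2i+LIF HP (-0.02 over all genes). The keratins Krt7, Krt8 and Krt18 averaged 23.5, 28.4 and 32.7 CPM in 2i+LIF HP and 6.17, 7.86 and 6.35 in LIF HP, and none of these differences passed (edgeR adjusted p 0.276, 0.109 and 0.0848). The genes higher than in LIF LP were Sfn, which encodes the 14-3-3 protein of epithelia, and Tfap2c, a transcription factor of trophoblast, epidermis and naive stem cells. Tfap2c had 122 to 152.7 CPM in the 3 LIF HP libraries against 60.04, 31.2 and 39.4 in LIF LP, without overlap (log2 fold change 1.70, SE 0.39, edgeR adjusted p 0.00739; 27 of 28 alternatives kept it). Both were also higher than in CH+LIF HP (0.592% of all genes were higher; 6 of the 10 at an unadjusted p under 0.05 and 2 called by DESeq2), Tfap2c by 2.11 (edgeR adjusted p 0.00619, lost without CH+LIF HP replicate 2 at 0.0526) and Sfn by 2.48 (0.0311, lost in 6 of 28, at up to 0.2). Sfn had 89.1 ± 18.7 CPM in LIF HP, 15.2 ± 7.64 in LIF LP (log2 fold change 2.54, edgeR adjusted p 0.00872, lost without LIF LP replicate 1 at 0.0623) and 15.9 ± 5.50 in CH+LIF HP. The comparison with 2i+LIF HP, in which 2.1% of all genes were higher and 1.68% lower (3.78% in all), gave 3 calls among the 10 (7 at an unadjusted p under 0.05; DESeq2 called 5): Perp, a component of desmosomes (2.75, edgeR adjusted p 0.00761, lost without LIF HP replicate 2 at 0.0717), and Tfap2c (1.45, 0.0331, lost in 5 of 28, at up to 0.152) were higher, and Grhl2, an epithelial transcription factor, was lower (-3.04, 0.0249, lost in 4 of 28, at up to 0.11). Tfap2c is also the member of the trophoblast list that made up most of its level: that list summed to 125.7 to 165.9 CPM in LIF HP and to 36.3 to 46.7 CPM in CH+LIF HP, while Elf5, Plac1 and Ascl2 had no counts in LIF HP. Its part in the Krtdap result was not tested.

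The sarcomere list held 25 genes with 9 tested. Its counts over all libraries also ranged widely, from 16266 for Mylpf, 2282 for Ttn, the giant spring protein titin, 1884 for Myl4 and 542 for Tnnt1, slow troponin T, to 1 each for Acta1 and Myog and 0 for Actc1, Myl1 and Myod1. Tnnt1 averaged 19.4 ± 5.73 CPM in LIF HP and 16.8 ± 3.81 in LIF LP (edgeR adjusted p 0.878). Mylpf, the regulatory light chain of fast muscle, averaged 855 ± 308 CPM in LIF HP against 250.3 ± 55.4 in LIF LP (log2 fold change 1.77, SE 0.40, edgeR adjusted p 0.00655; all 28 alternatives kept it). Myl4, the light chain of atrial and fetal muscle, was higher in LIF HP than in LIF LP by 1.14 (edgeR adjusted p 0.0488), a call that only 9 of 28 alternatives kept (up to 0.208). Of the 9, edgeR and DESeq2 each called 2 in that comparison, and by edgeR none was lower (5.33% of all genes were higher and 4.63% lower). In CH+LIF HP Mylpf had 537 ± 129.8 CPM, and in that comparison edgeR called 0 of 9 (1 at an unadjusted p under 0.05; DESeq2 called 0). Against 2i+LIF HP, Myl4 was higher by 2.83 (SE 0.41, edgeR adjusted p 0.000203; kept in all 28), at 81.3 ± 23.5 CPM beside 11.5 ± 3.49. By description Tnni1 had the lower level in LIF HP, so that Myl4 and Tnni1 ran in opposite orders here.

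Of 19 genes of the inner ear matrix 3 were tested, and Otol1, the otolith collagen, had 1 count in all. Spp1, a secreted phosphoprotein that binds calcium mineral, was higher in LIF HP (360.0 ± 90.8 CPM) than in 2i+LIF HP (89.8 ± 19.3) by a log2 fold change of 2.01 (SE 0.36, edgeR adjusted p 0.00161; kept in all 28), the 1 call of the list in that comparison (3.78% of all genes; DESeq2 called 2). The list had no call against LIF LP or CH+LIF HP by edgeR, with 1 gene at an unadjusted p under 0.05 in each and 1 and 0 called by DESeq2.

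Among 14 relatives and partners of eIF4E, 12 were tested, and edgeR called 1 against LIF LP (9.96% of all genes; DESeq2 called 2). Eif4e2, a cap-binding repressor of translation, averaged 676 ± 91.7 CPM in LIF HP against 310 ± 38.3 in LIF LP (log2 fold change 1.12, SE 0.33, edgeR adjusted p 0.0302). This call was lost in 7 of 28 alternatives, all 3 omissions of a LIF LP library and all 3 of a LIF HP library among them. Eif4e itself averaged 154.7 ± 19.1 CPM in LIF HP against 147.4 ± 26.5 in LIF LP (log2 fold change 0.07, SE 0.35). None of the 12 was called by edgeR against CH+LIF HP or 2i+LIF HP (3 and 1 at an unadjusted p under 0.05; DESeq2 called 0 in both). Of 22 oocyte genes 7 were tested, and edgeR called none against LIF LP or CH+LIF HP (1 and 0 at an unadjusted p under 0.05; DESeq2 called 0 in both). Against 2i+LIF HP it called 3 (3.78% of all genes). Dppa3, the maternal factor also called Stella, was lower in LIF HP, at 2.54 ± 2.58 CPM beside 84.4 ± 53.8 (-5.24, SE 0.97, edgeR adjusted p 0.00263; kept in all 28). Cpeb1, which regulates polyadenylation of maternal mRNA, was lower by -2.67 (edgeR adjusted p 0.0327, lost in 5 of 28, at up to 0.239), and Ooep, a protein of the subcortical maternal complex, was higher by 1.96 (0.027, lost in 4 of 28, at up to 0.152). Eif4e1b had the opposite order to Dppa3, with the higher level in LIF HP.

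Adam23, the close relative of Adam11 that also binds LGI proteins, was low in LIF HP, where Adam11 was highest. Its levels were 190.0, 229.7 and 172.7 CPM in LIF LP and 3.09, 0 and 2.06 CPM in LIF HP (197 ± 29.3 and 1.72 ± 1.57). The log2 fold change was -6.77 (SE 0.78, edgeR adjusted p 9.52e-06), and against CH+LIF HP, at 50.6, 116 and 118 CPM, it was -5.72 (SE 0.77, edgeR adjusted p 0.000204). All 28 alternatives kept both. Adam23 had 165, 136 and 95.7 CPM in CH+LIF LP, the group where Adam11 had 3 counts, and no counts in 2i+LIF HP. Replicate 1 of 2i+LIF LP had 24.5 CPM of Adam23 and 9.82 CPM of Adam11, while the other 2i+LIF LP libraries had 105 and 110.2 CPM of Adam23. Of 6 tested genes of the ADAM and LGI list edgeR called Adam23 alone against LIF LP (9.96% of all genes called; DESeq2 called 2) and against CH+LIF HP (1.47%; DESeq2 called 1). The ligands were scarce: Lgi1 had 27 counts over all libraries, Lgi2 had 15, Lgi3 had 19 and Lgi4 had 1.

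**Figure D3:**
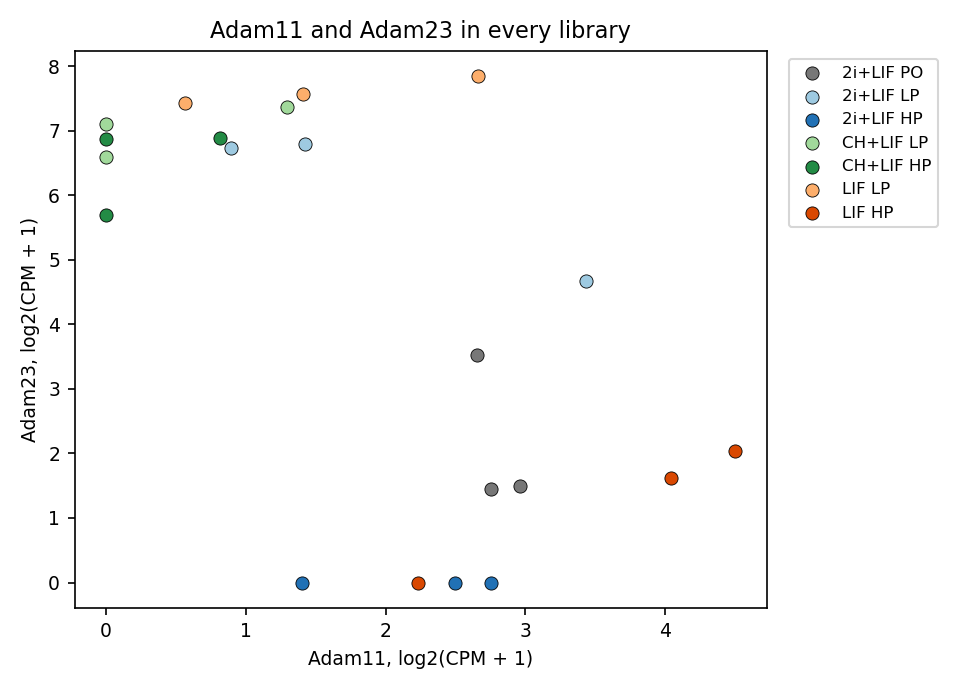
Adam11 (horizontal) and Adam23 (vertical) in each of the 21 libraries, both as log2(CPM + 1), coloured by group. The LIF LP and CH+LIF libraries lie at the top and the LIF HP, 2i+LIF HP and PO libraries lower down; LIF HP has 1.72 CPM of Adam23 on average and LIF LP 197.

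Of 28 sorting nexins 21 were tested, and edgeR called 2, both higher in LIF HP than in LIF LP (9.96% of all genes called, 5.33% higher), a share near that of all genes. Snx1, a subunit of the retromer-associated coat, had 60.2 ± 15.7 CPM beside 15.4 ± 4.73 (log2 fold change 1.96, SE 0.42, edgeR adjusted p 0.00507; kept in all 28). Snx6, its partner in that coat, had 134.5 ± 27.3 CPM beside 66.8 ± 3.03 (1.01, SE 0.30, edgeR adjusted p 0.0302; lost in 7 of 28, at up to 0.135). None was called by edgeR against CH+LIF HP or 2i+LIF HP (2 and 1 at an unadjusted p under 0.05; DESeq2 called 1 in each). The median of the list against LIF LP was -0.03, beside 0.01 over all genes. Snx20, by description, had its largest difference against 2i+LIF HP, where edgeR called no tested relative, beside 3.78% of all genes.

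Genes within 100 kb of the 6 were examined next, 39 in all, of which 15 were tested. Of these edgeR called 3 against LIF LP, 1 against CH+LIF HP and 1 against 2i+LIF HP (9.96%, 1.47% and 3.78% of all genes; DESeq2 called 3, 2 and 2). Beside Tnni1, Lad1 (chromosome 1, 135818598 to 135833342, 7.61 kb away), which encodes an anchoring-filament protein of epithelial basement membranes, shared some of its pattern. Lad1 had 21.6, 16.6 and 8.24 CPM in LIF HP and 1.10, 0 and 0 CPM in LIF LP (2 counts; edgeR adjusted p 0.000161, kept in all 27 alternatives), a ratio of 33.4 with an interval from 8.94 to 281. Its highest group was 2i+LIF HP, at 28.4, 28.3 and 46.0 CPM, as for Tnni1. The PO level of Lad1 (18.0 ± 3.01 CPM) was above its LIF HP mean (15.5 ± 6.77), whereas Tnni1 had 8.93 ± 3.49 CPM in PO and 34.3 in LIF HP, so the means of these groups stood in opposite order, with overlapping libraries for Lad1. The Lad1 level of 2i+LIF HP exceeded that of 2i+LIF LP by a log2 fold change of 2.6 (SE 0.54, edgeR adjusted p 0.00577; lost when only the groups compared were fitted, at 0.0667), and Lad1 was lower in CH+LIF LP than in 2i+LIF HP, by -3.79 (SE 0.60, edgeR adjusted p 0.000223; kept in all 28). Over the 21 libraries, which share groups and depth, Pearson's r of log2 CPM between Lad1 and Tnni1 was 0.824. Csrp1, a LIM-domain protein of smooth muscle and fibroblasts 27.2 kb away, was also higher in LIF HP (83.1 ± 10.2 CPM) than in LIF LP (16.1 ± 5.36), by 2.36 (edgeR adjusted p 0.00176; kept in all 28). Phlda3, a p53 target 10.3 kb away, was higher than in CH+LIF HP by 2.31 (edgeR adjusted p 0.0137; lost in 4 of 28, at up to 0.111). Tnnt2, cardiac troponin T, 25.4 kb away, had 63 counts in all and means of 3.92 ± 0.692 CPM (2i+LIF HP) and 2.78 ± 0.836 CPM (LIF HP), against no counts in LIF LP and CH+LIF LP; it was too low to be tested.

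Krtdap lies beside Dmkn (6.83 kb) and Sbsn (31.8 kb), which encode other secreted proteins of the epidermis. These had 18 and 66 counts in all and means of 0.788 ± 0.953 and 2.23 ± 0.780 CPM in LIF HP, where Krtdap had 295 CPM, so the high level of Krtdap was not shared by them. Farther away, the short-chain fatty acid receptor Ffar2 (27.3 kb) was at least 10.1-fold higher in LIF HP (7.73, 6.77 and 9.27 CPM) than in LIF LP, where it had no counts (edgeR adjusted p 0.00659, kept in all 27); its highest mean was that of PO, 18.7 ± 9.13 CPM. Its relative Ffar3 (63.2 kb) had 30.4, 25.9 and 11.3 CPM in LIF HP, and was higher there than in 2i+LIF HP by 5.17 (SE 1.27, edgeR adjusted p 0.0216; lost in 4 of 28, at up to 0.0925). Tmem147 (58.4 kb) was not called by edgeR in LIF HP against LIF LP, CH+LIF HP or 2i+LIF HP. The remaining neighbours with at least 10 counts, Atp4a (14 counts), Cd22 (19) and D7Ertd128e (50), were too low to be tested.

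Snx20 has Nkd1, an inhibitor and target of Wnt signalling, 31.7 kb away. Nkd1 had 6.04, 35.4 and 19.2 CPM in 2i+LIF HP, where Snx20 was lowest, and means of at most 2.64 ± 1.78 CPM elsewhere. It was higher there than in 2i+LIF LP by 4.18 (SE 1.13, edgeR adjusted p 0.0352; lost in 7 of 28, at 0.211 without 2i+LIF HP replicate 2) and lower in CH+LIF LP than in 2i+LIF HP by -6.23 (SE 1.41, edgeR adjusted p 0.00623; lost without CH+LIF LP replicate 1 at 0.0531). Pearson's r with Snx20 over the 21 libraries was -0.596. Cyld, a deubiquitinase 60.9 kb away, had 16.7 ± 1.15 CPM in 2i+LIF HP and 26.7 ± 6.84 in 2i+LIF LP, a difference that did not pass (edgeR adjusted p 0.341). Nod2, a sensor of bacterial cell walls 11.2 kb away, had 57 counts in all and was not tested.

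Near the other 3 genes edgeR called 0 of 7 tested neighbours between LIF HP and LIF LP, CH+LIF HP or 2i+LIF HP, with 2 at an unadjusted p under 0.05 in each comparison and 0, 0 and 1 called by DESeq2. They were Efr3a (2.24 kb from Oc90), Tspan17 and Rnf44 (0.918 and 90.1 kb from Eif4e1b) and Meioc, Ccdc43, Gjc1 and Eftud2 (79.2, 63.7, 19.3 and 58.2 kb from Adam11). Tspan17, a tetraspanin, had 37.3 ± 5.58 CPM in LIF HP, 16.5 ± 5.67 in LIF LP and 13.0 ± 2.13 in CH+LIF HP (edgeR adjusted p 0.119 and 0.134). Sncb, beta-synuclein, 17.4 kb from Eif4e1b, had 81 counts in all and was not tested.

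**Figure D4:**
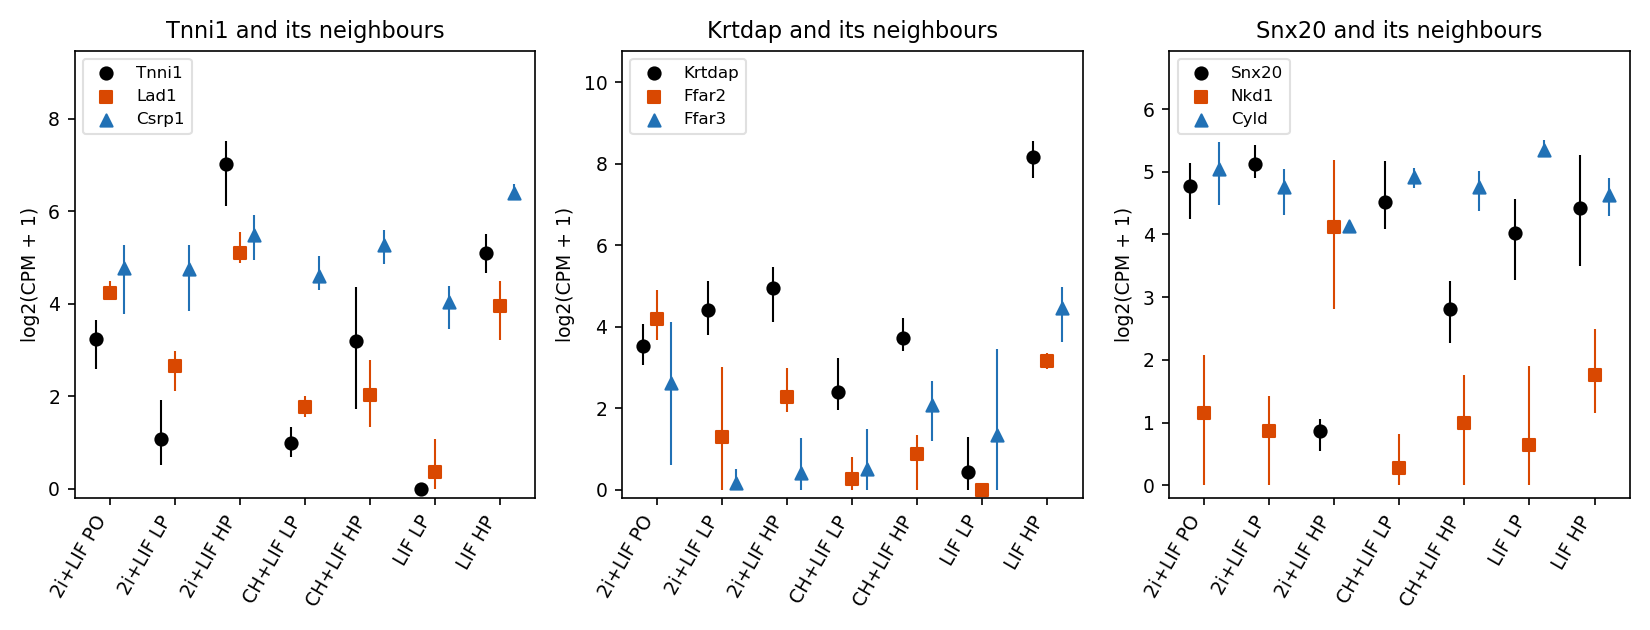
Tnni1, Krtdap and Snx20 with 2 neighbouring genes each, by group, as log2(CPM + 1); symbols are means of 3 libraries on this scale and bars run from the lowest to the highest library. Lad1, like Tnni1, is highest in 2i+LIF HP but is higher in PO than in LIF HP on average, and Nkd1 is high in 2i+LIF HP, where Snx20 is lowest.

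The genes whose log2 CPM was most like that of each gene over the 21 libraries were taken from 10515 genes, by Pearson's r and as a description, since libraries of a group are alike and chose part of the set. For Tnni1 they were the homeobox gene Crxos (r 0.939), the autophagy gene Gabarapl2 (0.902) and C2cd4b (0.891). The Crxos libraries had 310, 543 and 794 CPM for 2i+LIF HP, 174, 280 and 257 for LIF HP and 10.5, 3.98 and 9.14 for LIF LP, the same order of these 3 groups as for Tnni1. For Krtdap they were S100a13, a small calcium-binding protein (0.865), Nr2c2ap (0.852) and Urm1 (0.852). S100a13 had 738, 1093 and 1398 CPM in LIF HP and group means of 35.0 to 223 CPM elsewhere; its LIF HP libraries lay above all others, as for Krtdap. For Snx20 they were Galnt6 (0.858), Dhx16 (0.855) and Vps36 (0.852), all with their lowest mean in 2i+LIF HP, at 2.25 ± 3.03, 23.6 ± 14.1 and 25.4 ± 6.55 CPM. For Oc90 they were Tigd2 (0.884), Sema6a (0.88) and Gm9376 (0.864), for Eif4e1b Adam11 (0.843), Calcoco2 (0.831) and Dhrs3 (0.797), and for Adam11 Elf3 (0.864), Npr3 (0.843) and Eif4e1b (0.843).

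Within the set, Eif4e1b and Adam11 were the most alike (Pearson's r 0.843, Spearman's rho 0.8 over 21 libraries), both with LIF HP highest and CH+LIF HP lowest. Tnni1 and Oc90 had an r of 0.771 and Krtdap and Oc90 one of 0.724. Tnni1 and Snx20 had an r of -0.616, and the r of Snx20 with the other 4 lay between -0.249 and 0.18. Oc90, Eif4e1b and Adam11 had few counts, so their correlations also carry counting error.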

How the data were processed

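The mRNA was sequenced in 21 libraries, and the authors deposited 1 table of whole-number counts per library for 31053 Ensembl gene IDs, not normalized. Per the submitters' processing notes, bcl2fastq, STAR 2.6.0a, HTSeq and mm10 were used; annotation, strand setting and filters are not given in the sources used here. The 5 closing entries that name no gene (no feature 8.46 to 25.8% of all entries, ambiguous 0.179 to 0.683%, not unique 20.8 to 35.5%) stayed out of library sizes and tests. Symbols came from GENCODE M21, which holds 30934 of the IDs.

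The 6 genes and all gene lists were chosen with earlier results of these data known. All 21 libraries entered 1 edgeR 4.0.16 quasi-likelihood fit (R 4.3.3) with a coefficient per group, TMM scaling and filterByExpr, which left 10643 genes and 14 residual degrees of freedom. P-values were two-sided and adjusted by Benjamini-Hochberg over all tested genes, with a threshold of 0.05. CPM used TMM-scaled library sizes and log2 CPM a prior count of 2. Ratios used pooled counts and totals without TMM, with exact 95% intervals, and a count of 0 was taken to allow 3 counts. Intervals and limits cover counting error only. Named genes, beyond the 6, were per list and comparison up to 3 list genes with the largest called changes and a mean of at least 5 CPM in 1 group, neighbours within 100 kb with at least 10 counts, and the 3 most correlated genes per gene. List genes given by their counts alone were chosen after their values were seen, as were the motifs. Counts of called genes among the 6 leave out Oc90 and Eif4e1b, which passed the filter only through LIF HP; the plan had counted all 6. The fit was tested on simulated data.

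Alternatives were DESeq2 1.42.0, its size factors in edgeR, no filter, only the groups compared, a replicate block, both libraries that stood apart left out and each library of the groups compared left out; leaving out PO and the other libraries was added after seeing the data. The labels repeat replicate numbers between groups. Deviations of same-numbered libraries correlated above 0.1 in all 3 pairs only for 2i+LIF LP against PO (0.397, 0.345 and 0.179). The main fit did not treat the numbers as pairs in any comparison, and only the replicate block used them.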

Additional observations from a re-analysis of the deposited data

How the results depend on the processing

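In the joint test of 4 groups (3 without PO), 3 of 4 tested genes were called in the main fit and all 28 alternatives. All 275 alternative values of their 10 called pairwise differences kept their direction and 260 their call. Counts of all genes called moved more. In LIF HP against LIF LP, CH+LIF HP and 2i+LIF HP the main fit called 9.96%, 1.47% and 3.78% of genes (1060 and 402 for LIF LP and 2i+LIF HP). DESeq2 gave 357 and 743 for CH+LIF HP and 2i+LIF HP, no filter 326 and 689, and the fit of only the groups compared 2539, 1176 and 641. Leaving out both libraries that stood apart gave 2370, 758 and 1427, and leaving out PO gave 651 for 2i+LIF HP. Without 1 library of the groups compared the counts were 399 to 811, 29 to 69 and 123 to 293, lowest without LIF HP replicate 3, replicate 2 and replicate 2; without 1 other library they were 888 to 1617, 125 to 316 and 338 to 786, each highest without 2i+LIF LP replicate 1. The cause was not tested. With the replicate block the counts were 1280, 171 and 541, and no call of the 4 genes in the joint test changed (edgeR adjusted p of Krtdap 0.00551, Tnni1 1.28e-07, Snx20 2.1e-05 and Adam11 0.124). Of the described differences between LIF HP and LIF LP, CH+LIF HP or 2i+LIF HP, that of Snx20 against LIF LP changed sign, from 0.53 to -0.01 without LIF HP replicate 2; the other described differences of the 6 genes kept their sign. Depth limits Oc90, Eif4e1b and Adam11, which had 98, 106 and 176 counts in all.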
